A study of Arabidopsis thaliana with 4 samples.

Results

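Histone H3 of Arabidopsis thaliana is encoded by several genes, and 8 of them are described here in single cells of the root. The 5 H3.1 genes are HTR1 (AT5G65360), HTR2 (AT1G09200), HTR3 (AT3G27360), HTR9 (AT5G10400) and HTR13 (AT5G10390). The 3 H3.3 genes are HTR4 (AT4G40030), HTR5 (AT4G40040) and HTR8 (AT5G10980). They were taken by gene code, not by any measured value, and all 8 were found among the 32834 gene rows of each count table. Counts are unique molecular identifiers (UMIs), 1 for each captured RNA molecule, read from its 3′ end by droplet sequencing of root protoplasts, which are cells freed from their walls by enzymes.

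There were 4 libraries, each of a different transgenic line labelled diploid, each the only library of its line, and each its own batch. The lines are pWER:GFP, pCORTEX:GFP and pSCR:GFP, which carry green fluorescent protein under a WER, a cortex or an SCR promoter, and the enhancer trap PET111. Tips of primary roots were taken from seedlings 4 to 5 days after germination, and each library mixes cells of many types. A line and its batch cannot be told apart, so no line was tested against another. The comparisons are between states of cells within each library, with the 4 libraries as the replicates. Nothing in the labels says that each came from more than 1 preparation of protoplasts. The p-values thus measure how far the difference between states varied over these libraries. No line without a transgene was among them.

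The histone H3 variants wrap DNA in the same way but reach it by different routes. H3.1 is made mainly while DNA is copied and is placed behind the replication fork by chromatin assembly factor 1 (CAF-1), whereas H3.3 is made throughout the life of a cell and is placed independently of replication, mostly over transcribed genes, by chaperones such as HIRA. In plants the methyltransferases ATXR5 and ATXR6 act on H3.1. Nothing in these data measures the histone proteins.

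The coding sequences of the 8 genes are alike, which bears on how short reads that fall in them can be assigned. Molecules were read from their 3′ ends, and sequence after the stop codon was not compared. Each coding sequence has 411 bases in the RefSeq annotation of TAIR10.1, and the 5 H3.1 genes have 1 coding exon each, whereas the H3.3 genes have 3, 4 and 3 (HTR4, HTR5 and HTR8; HTR4 and HTR5 have 4 and 3 annotated coding isoforms, and an isoform of this length was read). Between pairs of H3.1 genes 80.3 to 89.5% of the bases are the same, between pairs of H3.3 genes 78.6 to 88.8%, and across the 15 pairs of an H3.1 and an H3.3 gene 74.0 to 80.3%. Of 136 codons after the start codon, 14 hold a base at which no H3.1 gene has a letter found in any H3.3 gene. The stretch of codons 27 to 45, counted from the first codon after the start codon, is shown because it holds several of these codons, in capitals, including 31 and 41, at which plant H3.1 and H3.3 are known to differ in protein; other capitals may be silent.
HTR1: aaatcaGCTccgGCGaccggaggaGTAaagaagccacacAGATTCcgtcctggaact
HTR2: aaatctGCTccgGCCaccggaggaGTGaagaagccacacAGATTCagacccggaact
HTR3: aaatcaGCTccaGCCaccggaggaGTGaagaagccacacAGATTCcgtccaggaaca
HTR9: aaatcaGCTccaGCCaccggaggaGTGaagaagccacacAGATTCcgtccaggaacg
HTR13: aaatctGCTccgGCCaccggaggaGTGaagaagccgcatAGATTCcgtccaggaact
HTR4: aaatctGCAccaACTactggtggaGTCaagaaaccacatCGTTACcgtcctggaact
HTR5: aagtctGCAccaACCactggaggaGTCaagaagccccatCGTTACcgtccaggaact
HTR8: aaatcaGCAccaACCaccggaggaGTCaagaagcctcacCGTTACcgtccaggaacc

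The stretch of codons 83 to 96 holds the other such pair, 87 and 90, again in capitals.
HTR1: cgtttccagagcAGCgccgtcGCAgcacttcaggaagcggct
HTR2: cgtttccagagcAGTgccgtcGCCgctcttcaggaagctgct
HTR3: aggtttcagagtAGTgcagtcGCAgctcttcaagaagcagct
HTR9: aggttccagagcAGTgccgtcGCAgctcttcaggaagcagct
HTR13: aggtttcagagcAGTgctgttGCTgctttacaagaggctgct
HTR4: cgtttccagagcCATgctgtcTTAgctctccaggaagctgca
HTR5: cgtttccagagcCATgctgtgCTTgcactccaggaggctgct
HTR8: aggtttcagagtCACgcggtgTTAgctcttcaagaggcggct

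All 8 genes lie on the minus strand, and the sequences are written 5′ to 3′ in the direction of the gene. HTR13 and HTR9 are neighbours on chromosome 5 with 577 bases and no other protein-coding gene between them, and HTR4 and HTR5 are neighbours on chromosome 4 with 42 bases between them. How the counting treated reads that match more than 1 of these genes is not given in the sources used here, so each gene's own value is less certain than the sum over its variant.

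The 250 bases before the annotated gene start were searched on both strands for letters known from plant histone promoters. The octamer CGCGGATC was present in 0.135% of the windows of all 27443 protein-coding genes and in those of HTR1, HTR2, HTR9 and HTR5, with 2 copies at HTR2. The hexamer ACGTCA was present in 7.69% of all windows and in those of HTR3, HTR9 and HTR8, with 2 copies at HTR8. An E2F motif, searched as TTTCCCGC, TTTGGCGC, TTTGCCGC or TTTCGCGC, was present in 1.41% of all windows and in none of the 8. The windows of HTR3, HTR4 and HTR5 have 250, 208 and 99 of their 250 bases inside another annotated gene. Motifs in these windows are still counted here and below. The other 5 are shown because these genes differ in the results below, with octamer and hexamer in capitals, which overlap nowhere.
HTR1: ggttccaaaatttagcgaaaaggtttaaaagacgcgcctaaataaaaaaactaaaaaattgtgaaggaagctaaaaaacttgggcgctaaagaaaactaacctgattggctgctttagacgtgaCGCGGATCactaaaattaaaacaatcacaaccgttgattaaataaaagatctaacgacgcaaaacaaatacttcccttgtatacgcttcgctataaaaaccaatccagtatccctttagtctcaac
HTR2: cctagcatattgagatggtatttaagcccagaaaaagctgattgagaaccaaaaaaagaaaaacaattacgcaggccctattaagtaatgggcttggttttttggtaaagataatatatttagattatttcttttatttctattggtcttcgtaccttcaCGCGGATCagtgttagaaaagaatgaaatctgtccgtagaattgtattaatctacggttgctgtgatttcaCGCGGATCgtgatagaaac
HTR9: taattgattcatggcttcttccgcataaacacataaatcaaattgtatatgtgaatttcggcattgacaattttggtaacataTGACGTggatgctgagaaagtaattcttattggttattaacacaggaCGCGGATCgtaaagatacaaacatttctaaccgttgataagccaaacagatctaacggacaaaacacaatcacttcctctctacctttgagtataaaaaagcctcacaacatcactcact
HTR13: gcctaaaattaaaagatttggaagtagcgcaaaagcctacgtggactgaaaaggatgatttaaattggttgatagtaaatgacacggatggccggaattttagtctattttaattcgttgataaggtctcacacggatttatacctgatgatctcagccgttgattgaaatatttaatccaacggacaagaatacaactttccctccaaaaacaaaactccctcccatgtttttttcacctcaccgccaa
HTR8: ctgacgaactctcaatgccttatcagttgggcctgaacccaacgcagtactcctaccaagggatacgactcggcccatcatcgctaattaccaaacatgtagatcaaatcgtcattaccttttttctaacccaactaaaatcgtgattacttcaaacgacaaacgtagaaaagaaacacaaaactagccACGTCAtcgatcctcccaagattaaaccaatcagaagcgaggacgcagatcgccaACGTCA

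A motif match is a description of these letters only, and no link of motifs to RNA levels was tested. The HTR13 window holds neither octamer nor hexamer. AACGG, also searched, was present in 20.6% of all windows, in 4 of the H3.1 genes (2 copies at HTR13) and 1 of the H3.3 genes. TATAAA was present in 47.3% of all windows, in 4 of the H3.1 genes, HTR13 among them, and 0 of the H3.3 genes. CCAAT was present in 46.0% of all windows and in those of all 8 genes.

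Barcodes were kept from 2000 UMIs upwards if organelle genes gave no more than 10% of them. This left 6360 barcodes for pWER:GFP, 7552 for pCORTEX:GFP, 3516 for PET111 and 6830 for pSCR:GFP, with median depths of 10742.5, 14322.5, 15354.5 and 9532 UMIs. Wherever 4 values stand together below, they follow this order of the libraries. Levels are UMIs of a gene per 1000000 UMIs of the cells summed (CPM). Of 24199 distinct barcodes, 59 occurred in at least 2 libraries, 5 to 16 for a pair. Scrublet, a caller of doublets, marked 0, 0, 1 and 0 barcodes by its automatic threshold, which was read as a failed call, so doublets were left in.

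States were called without any histone gene. A cell was called dividing when genes of a list of 31 S phase genes (DNA replication) and a list of 30 G2/M genes (mitosis) gave at least 4 UMIs from at least 2 genes and at least 0.2% of its UMIs. A dividing cell was S-like when at least 2/3 of these UMIs came from the S phase list, and G2/M-like when at most 1/3 did. A cell was called differentiated when the cycle lists gave under 0.05% of its UMIs and 1 of 7 lists of maturation genes stood at 3 times or more its mean share. By these rules 370, 491, 247 and 219 cells were dividing, of which 190, 214, 135 and 78 were S-like and 148, 240, 98 and 118 G2/M-like, and 983, 1890, 923 and 1256 cells were differentiated. The dividing cells were deeper, with medians of 16700.5, 18605, 31206 and 18500 UMIs against 11154, 13538.5, 12211 and 9191.5 UMIs in the differentiated cells. The S-like and G2/M-like classes are ranges cut from a share and not cell types; 319, 369, 159 and 162 barcodes lay within 0.8 to 1.25 times the share that makes a cell dividing.

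Dividing cells carried far more H3.1 RNA than differentiated cells in every library, while H3.3 RNA stood near the same level in both. The summed H3.1 genes reached 2199, 3874, 3171 and 1929 CPM in dividing cells, against 177, 228, 205 and 108 in differentiated cells, ratios of 12.4, 17.0, 15.4 and 17.8. The lowest dividing value, 1929 CPM, lay far above the highest differentiated value, 228 CPM. The summed H3.3 genes stood at 1533, 1945, 1785 and 1784 CPM in dividing cells, against 1884, 2032, 1892 and 1750.5 in differentiated cells, ratios of 0.814, 0.957, 0.943 and 1.02. The H3.3 ranges of the 2 states overlapped.

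The genes were tested by edgeR's quasi-likelihood test on UMIs summed per library and state with library as a block, over all 18736 genes with enough counts, and p-values were adjusted by the Benjamini-Hochberg method over all of these. Changes were wide: 74.7% of the genes tested passed an adjusted p of 0.05, 34.7% higher and 40% lower in dividing cells, and the median log2 fold of all genes was -0.16. Against these shares, 5 of 5 H3.1 genes rose in dividing cells, with a median log2 fold of 3.69, and among the 3 H3.3 genes 1 fell and 2 did not pass the test, with a median of -0.19. As an alternative, whole Leiden clusters were called dividing from a cycle share of 0.2% and differentiated under 0.05%, without any maturation list. This called 4322, 4826, 2230 and 5752 cells differentiated. With these clusters in place of the states, HTR13 was the only H3.1 gene to pass (log2 fold 2.73, adjusted p = 0.0202, edgeR). HTR1, HTR2, HTR3 and HTR9 then had log2 folds of 0.22, 0.53, 0.74 and 0.85.

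HTR1 was the most abundant H3.1 gene in both states, at 813, 1381, 1184 and 738 CPM in dividing cells, against 88.0, 115, 107 and 57.6 in differentiated cells. Its log2 fold was 3.29 ± 0.14 (SE; adjusted p = 5.61e-05, edgeR). HTR2 was the H3.1 gene of the smallest fold, 3.20 ± 0.16 on the log2 scale (adjusted p = 5.86e-05, edgeR), with 248, 418, 337 and 246 CPM in dividing cells, against 29.0, 41.2, 34.1 and 17.1 in differentiated cells. The 2 folds differed by less than either standard error, and every dividing library of either gene lay above every differentiated one.

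HTR3 stood at 296, 614, 503 and 250.3 CPM in dividing cells, against 30.6, 30.1, 31.6 and 16.6 in differentiated cells, a log2 fold of 3.69 ± 0.21 (SE; adjusted p = 6.78e-05, edgeR). HTR9 reached 541, 969, 742 and 490.0 in dividing cells, against 26.4, 37.8, 29.9 and 14.9 in differentiated cells, a log2 fold of 4.48 ± 0.16 (adjusted p = 5.61e-05, edgeR). HTR2, HTR3 and HTR9 thus had almost the same level in differentiated cells but not in dividing ones, where HTR9 was the highest of the 3.

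HTR13 showed the steepest contrast of the 8 genes. It stood at 302, 491, 405 and 205 CPM in dividing cells, against 3.06, 3.17, 2.55 and 1.97 in differentiated cells. Its log2 fold was 6.79 ± 0.23 (SE; adjusted p = 5.61e-05, edgeR), and in each library the log2 ratio of the levels lay between 6.63 and 7.31. In differentiated cells HTR13 was thus close to absent, whereas the other H3.1 genes kept a low level.

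Over the 20 alternatives other than clusters the 5 genes passed each time. The log2 fold ranged over these alternatives from 1.96 to 3.69 for HTR1, 2.02 to 3.58 for HTR2, 2.44 to 4.33 for HTR3 and 3.15 to 5.10 for HTR9. For these 4 genes the lowest value came when a dividing cell needed 0.4% of cycle UMIs and the highest without barcodes above 100000 UMIs. HTR13 ranged from 5.20 with the same 0.4% rule to 7.25 without the highest 8% of doublet scores.

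**Figure D1:**
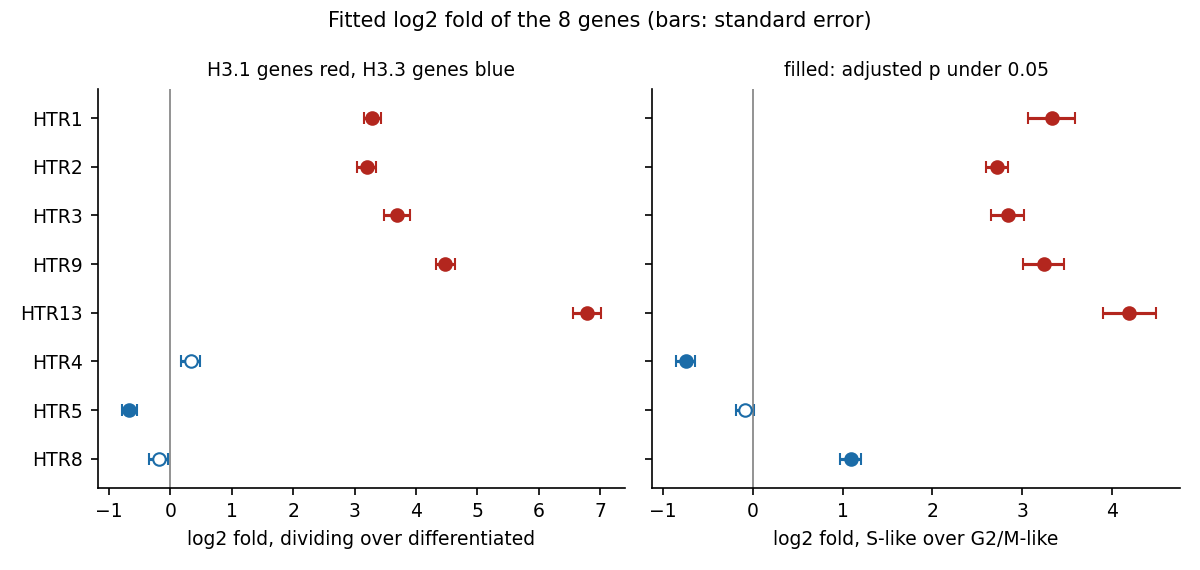
Fitted log2 fold of each of the 8 genes with its standard error, dividing over differentiated on the left and S-like over G2/M-like on the right, from edgeR with library as a block (4 libraries); H3.1 genes are red, H3.3 genes blue, and filled points passed an adjusted p of 0.05. The 5 H3.1 genes lie far to the right in both panels, with HTR13 at 6.79 and 4.19. On the left HTR5, HTR8 and HTR4 lie at -0.66, -0.19 and 0.33, and HTR5 alone of them is filled. On the right HTR4, HTR5 and HTR8 lie at -0.74, -0.08 and 1.09.

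Among the H3.3 genes, HTR5 fell in dividing cells and the other 2 did not pass the test, which does not show that their levels were equal. HTR5 stood at 517, 742, 782 and 614 CPM in dividing cells, against 822, 1049.7, 1025 and 763 in differentiated cells. It was lower in dividing cells in 4 of 4 libraries, with a log2 fold of -0.66 ± 0.13 (SE; adjusted p = 0.00459, edgeR), although the ranges of the groups overlapped between 763 and 782 CPM. The call was lost when every barcode was thinned to 2000 UMIs (-0.23, adjusted p = 0.284, edgeR) and when a dividing cell needed 0.4% of cycle UMIs (-0.57, adjusted p = 0.055, edgeR), as it was with clusters (-0.41, adjusted p = 0.159, edgeR).

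HTR4 stood at 404, 477, 472 and 409 CPM in dividing cells, against 241, 423, 353 and 237 in differentiated cells. The value was higher in dividing cells in 4 of 4 libraries, but the log2 fold of 0.33 ± 0.16 (SE) did not pass the test (adjusted p = 0.101, edgeR). It passed under 5 of 20 alternatives, among them scaling by total UMIs alone (0.53, adjusted p = 0.0206, edgeR), which shifts the log2 fold of all genes by 0.20 at the median, and leaving out the pCORTEX:GFP library (0.48, adjusted p = 0.0369, edgeR). HTR8 stood at 612, 726, 531 and 762 CPM in dividing cells, against 821, 559, 515 and 750.4 in differentiated cells, with a log2 fold of -0.19 ± 0.16 (adjusted p = 0.313, edgeR). Its ratio was below 1 in the pWER:GFP library and above 1 in the others, and its fitted fold turned to 0.24 on thinning (adjusted p = 0.277, edgeR).

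**Figure D2:**
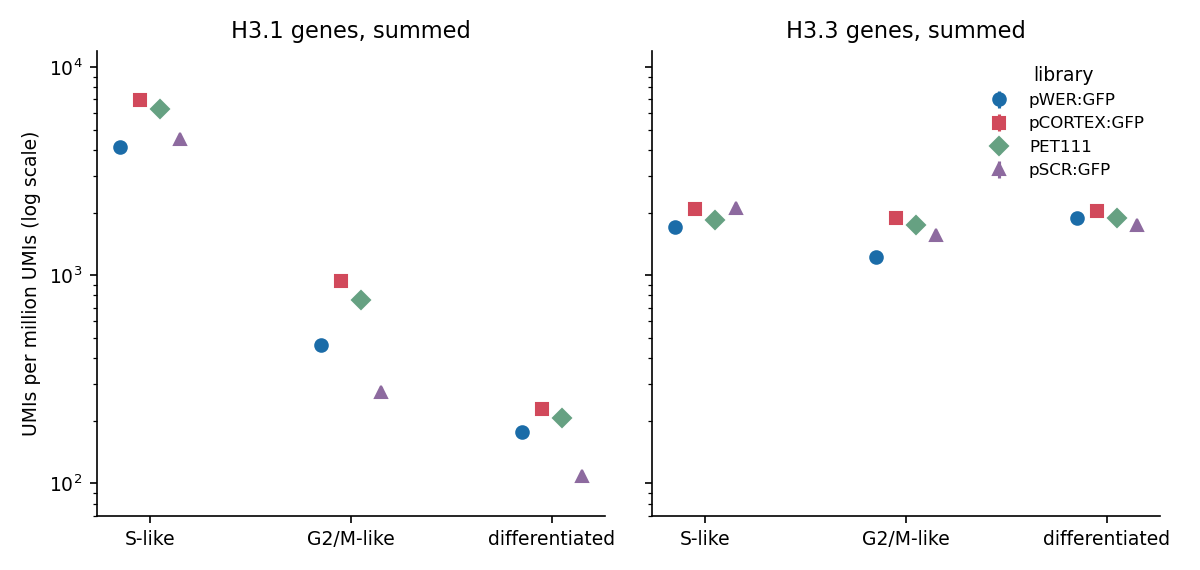
Summed H3.1 genes (left) and summed H3.3 genes (right), in CPM on a log axis, in S-like, G2/M-like and differentiated cells of each library; points are libraries and bars, mostly smaller than the points, are exact Poisson 95% intervals of counting error. H3.1 lies between 4138 and 6931 in S-like cells, 275 and 938 in G2/M-like cells, and 108 and 228 in differentiated cells, while H3.3 lies between 1225 and 2106 everywhere.

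Within dividing cells H3.1 RNA was concentrated in the S-like ones. The summed H3.1 genes reached 4138, 6931, 6331 and 4534 CPM in S-like cells, against 461, 938, 759 and 275 in G2/M-like cells, ratios of 8.97, 7.39, 8.34 and 16.5. In this comparison 15964 genes were tested, of which 27.9% passed, 15.2% higher and 12.7% lower in S-like cells. Against that background 5 of 5 H3.1 genes were higher in S-like cells, and of the 3 H3.3 genes 1 was higher, 1 lower and 1 did not pass.

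HTR13 again had the largest fold of the H3.1 genes, with 625, 876, 807 and 491 CPM in S-like cells, against 24.5, 72.4, 60.3 and 13.2 in G2/M-like cells (log2 fold 4.19 ± 0.30 SE; adjusted p = 0.000105, edgeR). HTR1 stood at 1558, 2486, 2354 and 1856 in S-like cells, against 162, 329, 291 and 88.5 in G2/M-like cells (3.33 ± 0.26; adjusted p = 0.000182, edgeR). HTR9 stood at 1012, 1761, 1504 and 1125 in S-like cells, against 120.4, 239, 175 and 62.2 in G2/M-like cells (3.24 ± 0.23; adjusted p = 0.000106, edgeR). The lowest G2/M-like value of each of these genes came from the pSCR:GFP library.

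HTR3 had 495, 1078, 989.7 and 536 CPM in S-like cells, against 77.5, 172, 149 and 45.2 in G2/M-like cells (log2 fold 2.84 ± 0.18 SE; adjusted p = 6.32e-05, edgeR). HTR2 had 447, 729.7, 677 and 527 in S-like cells, against 76.9, 126, 83.7 and 65.8 in G2/M-like cells (2.72 ± 0.12; adjusted p = 1.75e-05, edgeR). No S-like library of any H3.1 gene fell into the range of its G2/M-like libraries. Over the 17 alternatives the log2 fold ranged from 2.98 to 3.81 for HTR1, 2.61 to 3.1 for HTR2, 2.60 to 3.68 for HTR3, 2.93 to 4.64 for HTR9 and 3.88 to 5.33 for HTR13, and all 5 passed in each. G2/M-like cells in turn held more H3.1 RNA than differentiated cells in every library, with no overlap.

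The H3.3 genes differed from each other along the cycle. HTR8 was higher in S-like cells, at 912, 962, 759 and 1349 CPM, against 362, 542, 367 and 528 in G2/M-like cells, a log2 fold of 1.09 ± 0.12 (SE; adjusted p = 0.000894, edgeR), with no overlap between the groups. HTR4 was lower in S-like cells, at 302, 389, 350.2 and 221 CPM, against 445, 559, 558 and 455 in G2/M-like cells, a log2 fold of -0.74 ± 0.10 (adjusted p = 0.0029, edgeR), also with no overlap. HTR5 stood at 499.8, 731, 729 and 536 in S-like cells, against 417, 789, 815 and 584 in G2/M-like cells (-0.08 ± 0.10; adjusted p = 0.571, edgeR), and its ranges overlapped. It passed under 1 of 17 alternatives, without barcodes above 100000 UMIs (-0.41, adjusted p = 0.0191, edgeR). HTR8 passed under all 17 alternatives to this comparison; HTR4 passed under 16 and missed without the library block (adjusted p = 0.0792, edgeR).

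As a share of the summed H3.1 and H3.3 UMIs, H3.1 made up 60.4 ± 6.44% in dividing cells and 8.57 ± 1.94% in differentiated cells (mean ± SD, n = 4 libraries). This sum is meant by H3 UMIs here and below, and other H3 genes were left out of it. Those other genes held 1628, 290, 85 and 959 UMIs in differentiated cells, against 4280, 13849, 4919 and 2583 of H3.1. The difference was 50.3, 56.5, 54.2 and 46.1 percentage points in the 4 libraries; with 4 libraries the smallest two-sided p of an exact sign-flip test is 0.125, above the threshold of 0.05. S-like cells had 70.7, 76.9, 77.5 and 68.3% H3.1, and G2/M-like cells 27.4, 33.2, 30.4 and 14.9%. H3.1 thus made up most of the H3 RNA in S-like cells of every library and less than H3.3 in G2/M-like and differentiated cells of every library. Without barcodes above 100000 UMIs, an alternative chosen after seeing the data, the G2/M-like shares were 22.5, 16.1, 13.5 and 13.2%, and with a stricter phase rule the pCORTEX:GFP one was 21.5%. With clusters in place of states the difference was 26.6, 11.5 and 25.4 percentage points in pWER:GFP, pCORTEX:GFP and PET111. It turned to -5.17 in pSCR:GFP (12.9% in dividing and 18.1% in differentiated clusters). The differentiated clusters needed no maturation genes, and in pSCR:GFP they held 5752 of 6830 kept cells, against 1256 cells by the states. Deep cells weigh more in these sums: when each cell counted equally, the mean difference was 33.4 in place of 51.8 percentage points. Dividing cells then had 42.2, 41.0, 44.4 and 34.6% H3.1, below H3.3 in every library.

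Single cells show the same contrast at equal depth. With every barcode thinned to 2000 UMIs, an H3.1 UMI was found in 95.8, 87.4, 90.4 and 89.7% of S-like cells, 44.6, 58.8, 41.8 and 39.8% of G2/M-like cells and 23.0, 19.4, 18.7 and 20.4% of differentiated cells. Root hair-like cells, a class of the differentiated cells, gave 25.0, 12.4, 6.03 and 14.4%. That level may include RNA free in the droplets, which was not tested. Without thinning the shares were 97.2 to 99.3% in S-like cells and 55.0 to 62.4% in differentiated cells. For H3.3 the thinned shares were 84.6 to 95.3% in S-like cells and 90.3 to 97.2% in differentiated cells.

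The members of each variant were also unevenly spread over the kept cells. After thinning, the 5% of cells richest in H3.1 held 44.4, 67.3, 65.6 and 61.6% of all H3.1 UMIs, whereas the 5% richest in H3.3 held 17.8, 15.1, 14.1 and 20.7% of H3.3 UMIs. By this measure HTR13 was the most concentrated gene, with 93.9 to 100% of its thinned UMIs in its richest 5% of cells. It had no UMI in 94.5 to 97.5% of cells, so its richest 5% had to hold nearly all of its UMIs. HTR5 was the most evenly spread by this measure, with 20.0, 16.9, 16.5 and 19.7% of its UMIs in its richest 5% of cells. The order differed by the variance of the thinned counts over their mean. HTR13 then stood at 1.89, 2.82, 2.96 and 1.89, against 3.93, 8.86, 7.78 and 6.97 for HTR1. HTR3 and HTR9 also stood above HTR13 in every library, and HTR4 and HTR5 below it. HTR4 was the lowest gene, at 1.26 to 1.31.

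Grouping deeper barcodes (at least 10000 UMIs) by the share of S phase genes showed how H3.1 moves with replication genes. In the lowest bin, under 0.01% of UMIs from the S phase list, H3.1 stood at 91.2, 105, 92.1 and 75.8 CPM. It was higher in each further bin of every library and reached 4336, 6897, 6446 and 3746 CPM in the bin of 0.2 to 0.4%. H3.3 lay between 1577 and 2583 CPM over the same bins. Binned by the G2/M list, H3.1 peaked at a share of 0.01 to 0.02% in 3 libraries and was 179.9, 352, 538 and 318 CPM above 0.4%.

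**Figure D3:**
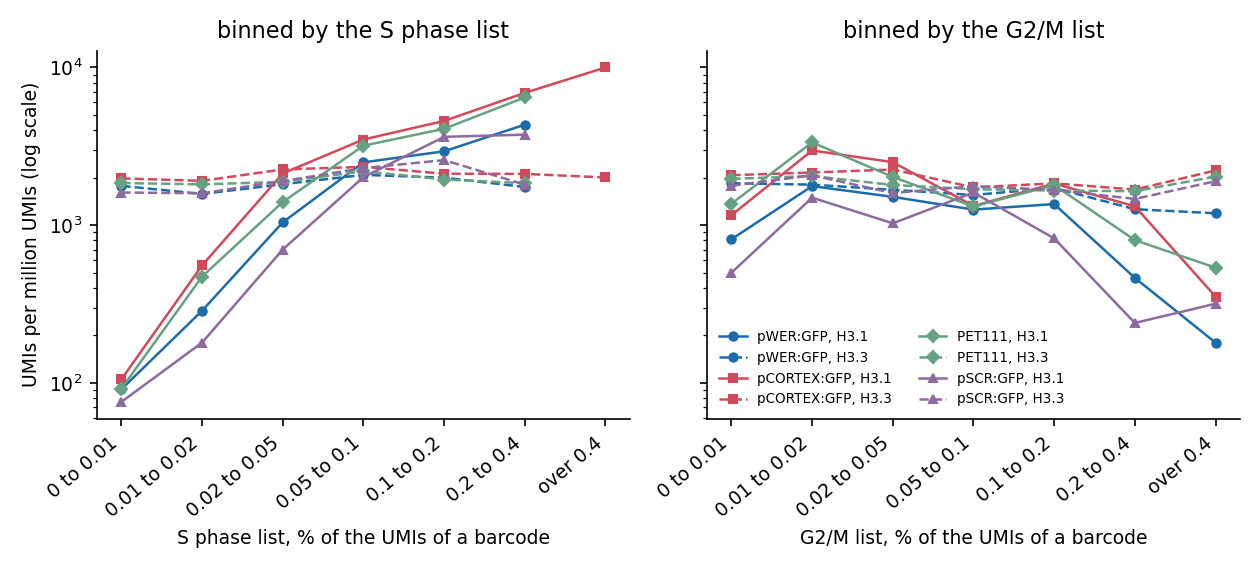
Summed H3.1 genes (solid) and H3.3 genes (dashed), in CPM on a log axis, for barcodes with at least 10000 UMIs binned by the share of their UMIs from the S phase list (left) or the G2/M list (right); points are libraries, and bins with under 20 barcodes are left out. H3.1 climbs from about the 75.8 to 105 of the lowest S phase bin in every library, and lies at 179.9 to 538 in the highest G2/M bin. H3.3 lies between 1577 and 2583 over the S phase bins. In pWER:GFP H3.3 is 1844 in the lowest and 1189 in the highest G2/M bin.

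The make-up of the H3.1 RNA differed between states and not only its amount. HTR13 gave 12.5 ± 1.31% of H3.1 UMIs in dividing cells and 1.55 ± 0.27% in differentiated cells (mean ± SD, n = 4), and HTR1 gave 37.1 ± 1.08% in dividing cells and 51.4 ± 1.56% in differentiated cells. Within dividing cells HTR13 gave 12.8 ± 1.76% of H3.1 UMIs in S-like cells and 6.44 ± 1.62% in G2/M-like cells. HTR9 held 24.6 ± 0.86% in dividing cells and 14.98 ± 1.19% in differentiated cells. The H3.1 RNA of differentiated cells was thus poor in HTR13 and HTR9 relative to that of the whole libraries, in which HTR13 gave 6.44 ± 1.31%.

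The make-up of the H3.3 RNA also moved with the cycle. HTR8 gave 53.2, 46.2, 41.3 and 64.1% of H3.3 UMIs in S-like cells and 29.6, 28.7, 21.1 and 33.7% in G2/M-like cells. HTR4 gave 17.6, 18.7, 19.1 and 10.5% in S-like cells and 36.3, 29.6, 32.1 and 29.0% in G2/M-like cells. Over all kept cells HTR8 was the highest H3.3 gene in the pWER:GFP and pSCR:GFP libraries (782 and 846 CPM) and HTR5 in the pCORTEX:GFP and PET111 libraries (947 and 905), and HTR4 was the lowest of the 3 in all 4. These levels count molecules at their 3′ ends and are not divided by gene length.

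**Figure D4:**
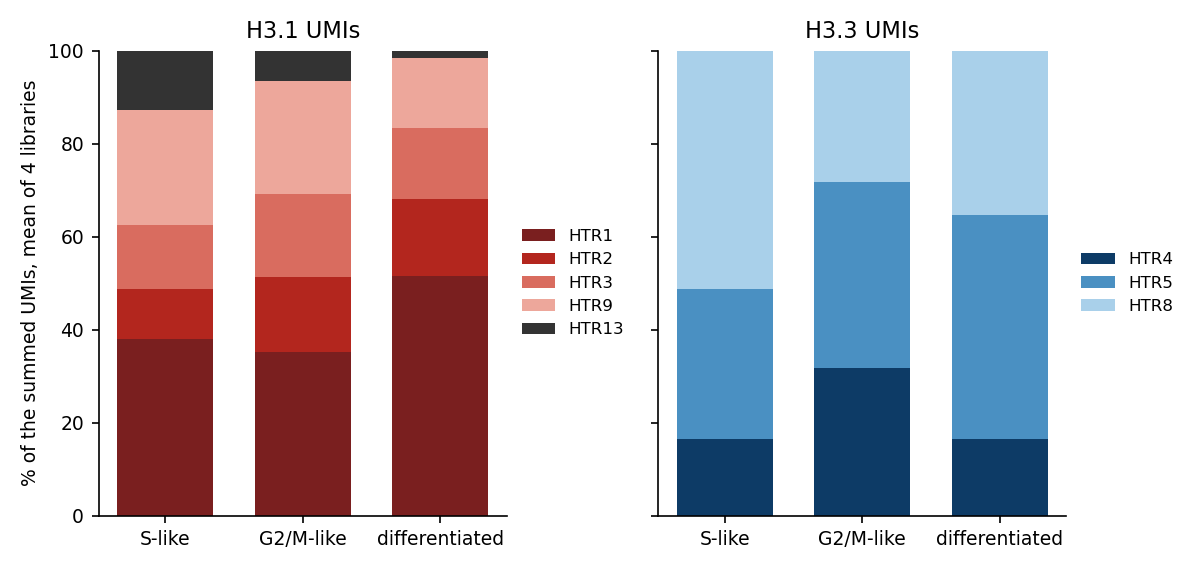
Make-up of the H3.1 UMIs (left) and H3.3 UMIs (right) by gene in S-like, G2/M-like and differentiated cells, as a percentage of the variant's UMIs averaged over 4 libraries. HTR13 takes 12.8% of the H3.1 UMIs of S-like cells and 1.55% of those of differentiated cells, and HTR8 takes 51.2% of the H3.3 UMIs of S-like cells and 28.3% of those of G2/M-like cells.

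Across kept cells the H3.1 genes varied together. The correlation of log-scaled counts between pairs of H3.1 genes, averaged over the libraries, lay between 0.64 and 0.72 for pairs without HTR13 and between 0.44 and 0.51 for pairs with it. Between HTR8 and the H3.1 genes it was 0.29 to 0.31, apart from HTR13 with 0.10, and for HTR4 and HTR5 it was at most 0.13. These are descriptions over 3516 to 7552 barcodes per library, which share a library and differ in depth.

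The genes most like the H3.1 sum across cells were all core histone genes. Among 17550 genes ranked, those of highest mean correlation were HTA6 (an H2A.W gene, 0.71), the H4 genes AT5G59690 (0.70), AT3G46320 (0.66) and AT3G45930 (0.65), HTA11 (H2A.Z, 0.64), the H4 genes AT1G07820 (0.64), AT5G59970 (0.64) and HIS4 (0.63), HTA3 (an H2A.X gene, 0.62) and HTB1 (H2B, 0.57). The 99th percentile of all genes was 0.39. For the H3.3 sum the values were lower, led by the H4 gene AT3G53730 (0.39), HTA1 (H2A, 0.36), the H1 gene AT1G06760 (0.36), HTA7 (H2A.W, 0.34), HIS4 (0.32), AT1G07820 (0.32), HTB9 (H2B, 0.32), AT2G37470 (H2B, 0.31), HTB11 (H2B, 0.28) and HTA10 (H2A, 0.28), against a 99th percentile of 0.17. HIS4 and AT1G07820 stood on both lists.

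The differentiated cells were divided by the maturation list that stood highest in them. By the mean over libraries, H3.1 made up the lowest share of H3 UMIs in root hair-like cells, 2.36, 3.50, 5.46 and 1.70%, followed by endodermis-like (8.62, 3.94, 3.29 and 6.27%), mature root cap-like (3.47, 6.37, 9.94 and 5.08%) and xylem-like cells (17.4, 5.90, 5.12 and 4.44%). Phloem-like cells had 8.53, 11.9, 11.01 and 14.2% and cortex-like cells 13.2, 16.5, 13.6 and 9.82%. The ranges of neighbouring classes overlapped, and mature stele-like cells, with 1 to 17 per library, were too few to use. PET111 phloem-like cells numbered 18.

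Few barcodes carry much of the H3.1 RNA of differentiated cells. In the pWER:GFP library 1 barcode, with 484 H3.1 UMIs of 44948 in all, held 78.8% of the H3.1 UMIs of 87 xylem-like cells, and without it the share of H3.1 was 5.14% in place of 17.4%. In the PET111 library 1 barcode held 78.9% of the H3.1 UMIs of root hair-like cells, and without it their share was 1.27%. Over all differentiated cells, 19, 42, 21 and 22 barcodes, or 1.93, 2.22, 2.28 and 1.75% of them, had at least 1000 H3.1 CPM and held 55.7, 64.0, 65.1 and 33.6% of the H3.1 UMIs. The rest of the differentiated cells stood at 80.6, 85.8, 74.4 and 72.9 CPM, and their H3.1 share was 4.21, 4.15, 3.88 and 4.06%. In the high barcodes HTR13 gave 1.22, 1.04, 0.719 and 0.230% of H3.1 UMIs, well under its share in S-like cells. In the rest of the differentiated cells it gave 2.37, 2.03, 2.21 and 2.62%. The shares in the high barcodes rest on few HTR13 UMIs. In pSCR:GFP all differentiated cells held 2583 H3.1 UMIs, 33.6% of them in the high barcodes. Of the S-like cells, 81.6, 75.7, 80.0 and 79.5% had at least 1000 H3.1 CPM, and of the G2/M-like cells 6.08, 15, 13.3 and 5.08%.

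**Figure D5:**
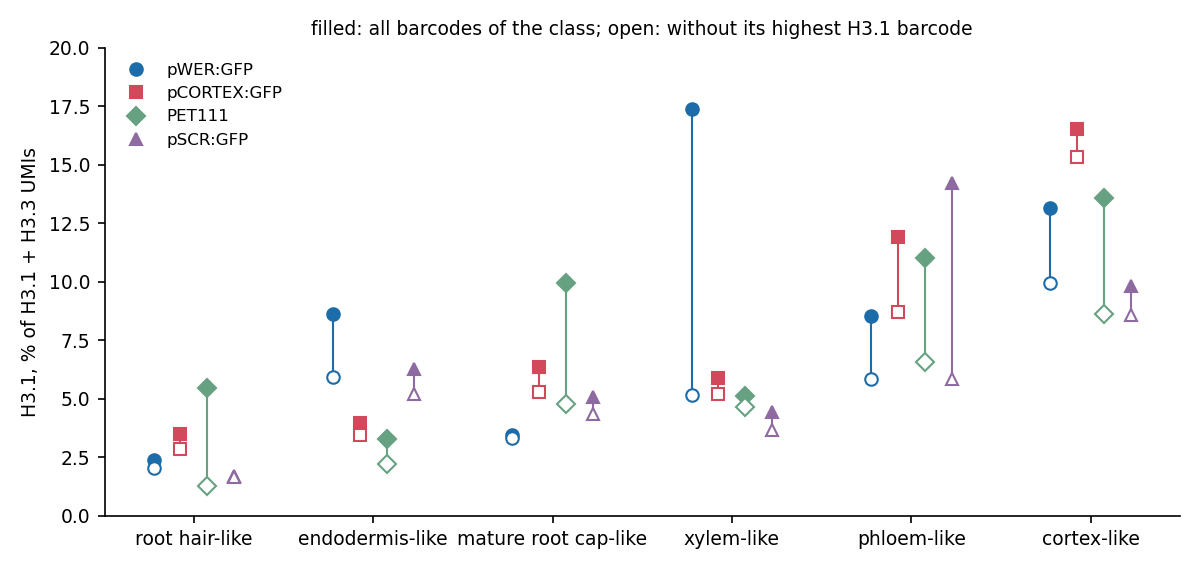
H3.1 as a percentage of H3.1 and H3.3 UMIs in 6 classes of differentiated cells of each library, over all barcodes of the class (filled) and without its barcode of most H3.1 UMIs (open), joined by a line. The longest line is that of pWER:GFP xylem-like cells, 17.4% with and 5.14% without 1 barcode; without the top barcode root hair-like cells have the lowest and cortex-like cells the highest value of the 6 classes in all 4 libraries.

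H3.3 RNA varied less between these classes. The summed H3.3 genes stood at 1385, 1908, 1786 and 1190.2 CPM in cortex-like cells, the lowest of the 6 classes except in PET111, where root hair-like cells had 1727 CPM. They stood at 2960.3, 2342, 2347 and 3075 CPM in mature root cap-like cells, the highest class except in pCORTEX:GFP and PET111, where phloem-like cells had 2550.0 and 2377 CPM. HTR8 led the mature root cap-like cells of the pWER:GFP and pSCR:GFP libraries, at 1964 and 1929 CPM, and stood at 749 and 728 in those of the pCORTEX:GFP and PET111 libraries. The xylem list, which holds the ribonuclease RNS3 and the proteases XCP1 and XCP2, had a median share of 0.761 and 0.746% of UMIs in these cells of pWER:GFP and pSCR:GFP, and of 0 in the other two libraries. The mature root cap list that named these cells had medians of 0.880, 0.344, 0.359 and 0.639%, in pSCR:GFP below that of the xylem list. The xylem list's part in the HTR8 level was not tested. HTR4 was lowest in xylem-like cells (167, 263, 213 and 178 CPM) and mature root cap-like cells (139, 304, 289 and 181.8 CPM).

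Most H3.1 RNA lay in cells that were called neither dividing nor differentiated. These unassigned cells held 76.4, 76.6, 71.4 and 81.5% of the H3.1 UMIs and 78.7, 68.5, 66.7 and 78.4% of the kept barcodes. Among them 7.61, 5.78, 5.16 and 4.39% reached the median H3.1 level of the S-like cells of their library. Their cycle genes had a median share of 0.0756, 0.0787, 0.0836 and 0.0748% of UMIs, against 0.0299, 0.0211, 0.0158 and 0.0257% in all unassigned cells.

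The other genes of histone H3 metabolism were read from lists named for their roles. All 7 genes of the list for H3 chaperones of replication, which also holds TSK, rose in dividing cells. Their median log2 fold was 2.50, against -0.16 for all genes tested, of which 34.7% rose. FAS2 and FAS1, subunits of CAF-1, had log2 folds of 3.87 ± 0.40 and 3.36 ± 0.15 (SE; adjusted p = 0.000402 and 5.61e-05, edgeR), and ASF1B, an H3-H4 chaperone, 3.40 ± 0.21 (adjusted p = 8.01e-05, edgeR). The lowest were ASF1A at 0.73 ± 0.16 (adjusted p = 0.00716, edgeR) and TSK, which reads newly made H3.1, at 1.48 ± 0.25 (adjusted p = 0.00284, edgeR). Both missed the threshold when a dividing cell needed 0.4% of cycle UMIs (adjusted p = 0.0748 and 0.226, edgeR). Between phases 4 of the 7 were higher in S-like cells, 1 was lower and 2 did not pass, beside 15.2% of all genes tested higher and 12.7% lower. FAS1 was higher in S-like than in G2/M-like cells by 3.14 ± 0.12 and TSK by 2.66 ± 0.21 (log2, SE; adjusted p = 1.13e-05 and 0.000175, edgeR). AT4G37210 was lower in S-like cells (-0.72 ± 0.11, adjusted p = 0.00353, edgeR), a call lost on thinning (-0.28, adjusted p = 0.766, edgeR). MSI1 and ASF1A stood at 0.32 ± 0.13 and 0.08 ± 0.11 (adjusted p = 0.11 and 0.668, edgeR).

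Of the 6 genes of H3.3 deposition, 3 rose in dividing cells, 1 fell and 2 did not pass, with a median log2 fold of 0.45; of all genes tested, 34.7% rose and 40% fell. UBN2 and HIRA, of the HIRA complex, had log2 folds of 1.69 ± 0.36 and 0.98 ± 0.19 (SE; adjusted p = 0.00694 and 0.00451, edgeR). DEK3, a chromatin protein, had a log2 fold of -0.38 ± 0.11 (adjusted p = 0.0215, edgeR), a call lost without any 1 of the 4 libraries (adjusted p = 0.0576 to 0.0841, edgeR), and its sign turned on thinning (0.19). UBN1 stood at -0.04 ± 0.15 (adjusted p = 0.799, edgeR), and at 0.15 with scaling by total UMIs alone. CABIN1, of the HIRA complex, had a log2 fold of 0.66 ± 0.18 (adjusted p = 0.0184, edgeR), which missed without pWER:GFP, pCORTEX:GFP or PET111 (adjusted p = 0.0573, 0.0569 and 0.0692, edgeR). Between phases 1 of the 6, DEK3, was higher in S-like cells (0.91 ± 0.12, adjusted p = 0.00231, edgeR), 4 did not pass, and ATRX was lower (-0.54 ± 0.11, adjusted p = 0.0142, edgeR), a call lost without pCORTEX:GFP or PET111 (adjusted p = 0.0759 and 0.0586, edgeR). In that comparison 15.2% of all genes tested were higher and 12.7% lower.

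The H3.1 methyltransferases ATXR6 and ATXR5 both rose in dividing cells, by 5.00 ± 0.29 and 2.20 ± 0.23 on the log2 scale (SE; adjusted p = 7.17e-05 and 0.000423, edgeR). Between phases they parted: ATXR6 was higher in S-like than in G2/M-like cells by 3.85 ± 0.34, and ATXR5 was lower in S-like cells, with a log2 fold of -0.57 ± 0.16 (adjusted p = 0.000312 and 0.0367, edgeR). The ATXR5 call was lost without any 1 library (adjusted p = 0.0514 to 0.161, edgeR) and with the DESeq2 Wald test (adjusted p = 0.128). Among other H3 genes, HTR12, the centromeric H3, rose by 4.44 ± 0.27 and HTR11 by 3.66 ± 0.23 (adjusted p = 7.74e-05 and 8.06e-05, edgeR). AT1G75600 and AT1G13370 had log2 folds of 0.52 ± 0.53 and 0.33 ± 0.50 (adjusted p = 0.404 and 0.575, edgeR), and the sign of both turned when a dividing cell needed 0.4% of cycle UMIs (-1.54 and -1.50). The remaining 2 of the 6 genes had too few counts to test. HTR11 and HTR1 are neighbours with 33 bases between them.

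The genes of the partner histones were mostly higher in dividing cells, as 34.7% of all genes tested were. All 8 H4 genes rose in dividing cells, from AT3G46320 (4.08 ± 0.26, log2 and SE) and AT3G45930 (3.58 ± 0.25) at the top to AT1G07660 (1.25 ± 0.12) and AT3G53730 (0.63 ± 0.21, adjusted p = 0.0367, edgeR) at the bottom; their median was 2.40. AT3G53730 missed without pCORTEX:GFP or PET111 (adjusted p = 0.114 and 0.12, edgeR) and had a log2 fold of -0.29 with the 0.4% rule. Of the H2A genes, canonical and X, 4 of 6 rose, led by HTA3 at 4.21 ± 0.13 and HTA2 at 1.69 ± 0.12, while HTA13 (1.34 ± 0.57) and HTA1 (0.35 ± 0.33) did not pass, at adjusted p of 0.0758 and 0.373 (edgeR). HTA10, at 1.13 ± 0.22, also rose. With the 0.4% rule HTA2, HTA10 and HTA5 missed (0.61, 0.27 and 0.48, adjusted p = 0.0867, 0.591 and 0.439, edgeR). HTA13 passed without pWER:GFP (1.81, adjusted p = 0.0421, edgeR), and HTA1 turned to -0.78 with the 0.4% rule. Of 10 H2B genes tested, 8 rose, with HTB2 (5.04 ± 0.22) and HTB1 (3.06 ± 0.17) at the top and AT5G02570 (1.11 ± 0.64) and AT2G28720 (1.06 ± 0.20) at the bottom, the first of this last pair not passing the test (adjusted p = 0.164, edgeR). With the 0.4% rule AT5G02570 turned to -1.64 and AT2G28720 missed (0.14, adjusted p = 0.652, edgeR).

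The H2A variants split by gene. All 3 H2A.Z genes rose in dividing cells, HTA8 by 5.35 ± 0.32, HTA11 by 3.77 ± 0.16 and HTA9 by 0.82 ± 0.12 (log2, SE; adjusted p = 7.21e-05, 5.61e-05 and 0.00136, edgeR). Of the H2A.W genes, which mark heterochromatin, HTA6 rose by 2.99 ± 0.15 and HTA7 by 1.56 ± 0.38, whereas HTA12 had a log2 fold of -3.27 ± 0.18 (adjusted p = 5.94e-05, 0.0116 and 6.51e-05, edgeR). HTA7 missed with the 0.4% rule (0.74, adjusted p = 0.297, edgeR). The linker histone genes AT2G30620 (0.29 ± 0.11) and AT1G06760 (-0.17 ± 0.13) did not pass between dividing and differentiated cells, at adjusted p of 0.0661 and 0.278 (edgeR), and HIS1-3 had too few counts to test. With scaling by total UMIs alone AT2G30620 passed (0.48, adjusted p = 0.0104, edgeR) and AT1G06760 turned to 0.03. Both were higher in S-like than in G2/M-like cells, by 1.57 ± 0.08 and 1.46 ± 0.12 (adjusted p = 3.1e-05 and 0.000191, edgeR).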

How the data were processed

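Counts of UMIs per gene and barcode were deposited by the authors as 1 table for each of 4 libraries; whole-number values were checked in the files. The submitters' processing notes name Cell Ranger 7.1.0 and Seurat; the genome build and annotation are not given in the sources used here, so no coordinates are printed. Each library was filtered, split into states and summed on its own (at least 2000 UMIs, at most 10% organelle UMIs), and sums per library and state were tested with edgeR 4.0.16 (TMM factors, quasi-likelihood test, library as a block, genes with at least 10 UMIs in at least 4 of 8 sums); the script was tested on simulated data. DESeq2 1.42.0 was an alternative. The SE of an edgeR log2 fold is an approximation, its absolute value divided by the square root of the F statistic of the test. Levels are UMIs per 1000000 UMIs (CPM) with exact Poisson 95% intervals, and shares of cells have exact Clopper-Pearson intervals; these cover counting error only. Depth was 151062589 UMIs at the lowest and 298058639 at the highest over the kept barcodes of a library. Correlations used ln(1 + UMIs per 10000) over genes found in 1% or more of each library's kept barcodes. Clustering and doublet scores came from scanpy 1.11.5. The members, gene lists and tests were chosen with earlier results of these data known. From each other histone or chaperone list the text names the 2 highest and 2 lowest log2 folds between dividing and differentiated cells, all members of lists of 3 or fewer, and the 10 genes most correlated with each H3 sum; others it names were picked after their values were seen. Sequences are RefSeq's TAIR10.1, matched by gene code for all 8 genes.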

Additional observations from a re-analysis of the deposited data

Results flagged for a closer look

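Over 30 sets of 4 libraries, 4 held a library far from the other 3; chance alone marks about 1 in 20 such sets. The log2 ratio of S-like over G2/M-like cells was highest in pSCR:GFP for HTR3 (3.57) and HTR9 (4.18), where the G2/M-like cells had the lowest H3.1 level of the 4 libraries. For HTR5 the same ratio was 0.26 in pWER:GFP and lower in the other 3. The share of H3.1 among H3 UMIs was 17.4% in pWER:GFP xylem-like cells, where 1 barcode held most H3.1 UMIs.

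Directions differed between lines, beyond counting error, for 2 genes; with 1 library a line, these differences were not tested. HTR5, S-like over G2/M-like, had a log2 ratio of 0.26 in pWER:GFP, against -0.11 for pCORTEX:GFP and -0.16 for PET111. HTR8, dividing over differentiated, had a log2 ratio of -0.43 in pWER:GFP and 0.38 in pCORTEX:GFP.

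Barcodes left out by the filter also held H3 UMIs. Those with at least 2000 UMIs but over 10% organelle UMIs had an H3.1 share of H3 UMIs of 37.3% (pWER:GFP), 32.7% (pCORTEX:GFP), then 32.2% (PET111) and 28.7% (pSCR:GFP). Those under 2000 UMIs with at most 10% organelle UMIs had 32.1, 30.8, 46.5 and 25.2% in the same order, against 35.7, 41.4, 45.1 and 26.8% in kept barcodes.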

How the results depend on the processing

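The 5 H3.1 genes stayed higher in dividing and in S-like cells under all alternatives except clusters. With Leiden clusters in place of cell states, called differentiated without any maturation list, 1 H3.1 gene passed and 0 H3.3 genes fell. The mean share difference was then 14.6 percentage points, with the sign turned in pSCR:GFP (-5.17). The 1 cluster called dividing in each library held 1220, 1143, 1285 and 243 CPM of H3.1. The mean share difference was 33.4 with each cell weighted equally, 31.6 with a cycle share of 0.4% and 52.6 without the top H3.1 barcode of each state, against 51.8. A cycle share of 0.4% left 0 H3.3 genes lower. HTR4 rose (1 H3.3 gene higher) with total UMIs alone, no filter, the DESeq2 Wald test or thinned barcodes; thinning left 0 lower. Leaving out 1 library each gave 0 to 1 H3.3 genes higher. HTR8, dividing over differentiated, turned to 0.13 with a cycle share of 0.1%, 0.0053 with total UMIs alone, 0.24 thinned and 0.18 without barcodes above 100000 UMIs, none passing. Thinning called 3116 genes higher and 3767 lower in dividing cells, against 6509 and 7496. Between S-like and G2/M-like cells (2432 and 2029), it called 226 and 232, no library block 725 and 667, and no barcodes above 100000 UMIs, chosen after seeing the data like the top barcode, 1146 and 1281. Leaving out 1 library gave 1036 to 2787 higher and 738 to 2459 lower. Without the block 0 H3.3 genes were lower, and without barcodes above 100000 UMIs 2 were (HTR4 and HTR5). The cause was not tested. The labels number no replicates, so the pairing is that of states within a library, made by the library block.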
